A study of Mus musculus with 6 samples.

Results

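The transcripts described here are those of 41 genes of cholesterol and fatty acid synthesis, taken by gene name from a list of sterol and fatty acid genes out of the 56448 genes in the expression table. They form a sterol branch of 20 genes and a fatty acid branch of 21 genes, which also holds genes of triglyceride assembly and storage. Each of the 41 names matched 1 row, and each of the 41 passed the filter of a mean of at least 1 TPM (transcripts scaled to a fixed sum per library and to gene length) over the libraries, as did 13406 genes in all. The samples were 6 messenger RNA libraries from 4T1 cells, a mouse mammary carcinoma line grown with fetal bovine serum, 3 with the genotype label in9 and 3 with the genotype label LV2. The series describes a stable lentiviral knockdown of the microRNA miR-9 with a control, and its labels neither spell out in9 and LV2 nor say which of them is the control. Whether the lines were clones or pools, and whether the replicates came from separate cultures, is not given in the sources used here, so the p-values measure the spread between these libraries only, which may be technical.

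Cells make cholesterol from acetyl-CoA through mevalonate, isoprenoid diphosphates, squalene and lanosterol, and they make fatty acids by joining units of malonyl-CoA, which are then elongated, desaturated, activated and built into glycerolipids. Transcription of both branches is driven by the SREBP proteins, encoded by Srebf2 and Srebf1, which are held in the endoplasmic reticulum by INSIG proteins while sterol is plentiful and are cut and sent to the nucleus when it runs short. SREBP-2 acts mainly on the sterol branch and SREBP-1c mainly on the fatty acid branch, and SREBP proteins bind DNA together with partners such as NF-Y and Sp1. Tumour cells in culture are known to draw on both branches and on lipid from serum.

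The values were TPM as deposited, which keep no record of depth, so the depth behind each value is unknown. Over all 13406 genes tested, 110 were higher and 26 lower in in9 than in LV2 at an adjusted p under 0.05 (limma on log2(TPM + 1)). The first principal component, with 28.1% of the variance, placed in9 replicate 1 at -2.70, against 26.1 and 27.8 for the other in9 libraries, while the LV2 libraries lay between -22.2 and -6.98. Leaving out in9 replicate 1 gave 971 higher and 509 lower genes, and leaving out each of the others gave 6 to 10 higher and 1 to 4 lower genes. The precursor genes Mir9-1, Mir9-2 and Mir9-3 were listed at 0 in all libraries, and mature miR-9 is not measured here, so the labels were not checked against the target. The epithelial markers Epcam, Krt8, Krt18 and Cdh1 summed to 1956.7 to 1998.2 TPM in in9 and 2066.8 to 2089.3 TPM in LV2. Within that sum Epcam had a log2 fold change of -0.30 and Cdh1 one of 0.19. Markers of adipocytes, cells rich in lipid synthesis, summed to 0.890 to 1.38 TPM in in9 and 0.930 to 1.58 TPM in LV2, with Lep at 0 in all libraries and Fabp4 alone of 6 markers above a mean of 1 TPM. Fibroblast markers summed to 7.95 to 8.43 TPM in in9 and 4.74 to 6.70 TPM in LV2, nearly all of it Pdgfra, leukocyte markers to at most 0.110 TPM in in9 and 0.170 TPM in LV2, and endothelial markers to 1.97 to 2.17 TPM in in9 and 1.71 to 1.95 TPM in LV2. The part of these markers and of in9 replicate 1 in the values below was not tested, beyond the values given without that library.

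Differences between the groups were small in both branches, and most members were a little higher in in9: 18 of 20 sterol and 16 of 21 fatty acid members had a positive log2 fold change, beside 63.7% of all genes. No member of either branch passed an adjusted p under 0.05 in limma, in either direction, where 0.821% of all genes tested were called higher and 0.194% lower. The nearest were Idi1 and Hmgcs1, with adjusted p-values of 0.0576 and 0.0599. At an unadjusted p under 0.05, 10 of the 20 sterol members were higher and none lower, and 4 of the 21 fatty acid members were higher and 1 (Plin2) lower, beside 13.6% of all genes higher and 5.86% lower. The same 10 sterol members had every in9 library above every LV2 library, as did 5 fatty acid members, beside 17.4% of all genes tested. Only Plin2 had every in9 library below every LV2 library, beside 8.08% of all genes. These separations are of TPM as deposited and were not counted after trimmed-mean scaling, where narrow gaps need not hold. That scaling divides in9 replicates 1 to 3 by 0.983, 1.05 and 1.06, and LV2 replicates 1 to 3 by 0.998, 0.968 and 0.950. The median log2 fold change, in9 minus LV2, was 0.18 over the sterol members and 0.12 over the fatty acid members, against 0.06 over all genes tested. With trimmed-mean scaling between libraries these medians were 0.10, 0.04 and -0.02, and 4 sterol members passed an unadjusted p under 0.05, against 5 after quantile normalization. With in9 replicate 1, 2 or 3 left out in turn, that sterol count was 9, 6 or 7. With LV2 replicate 1, 2 or 3 left out, it was 11, 4 or 5. The share of all genes past that p in these other settings is not given here, so these counts have no background beside them.

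**Figure D1:**
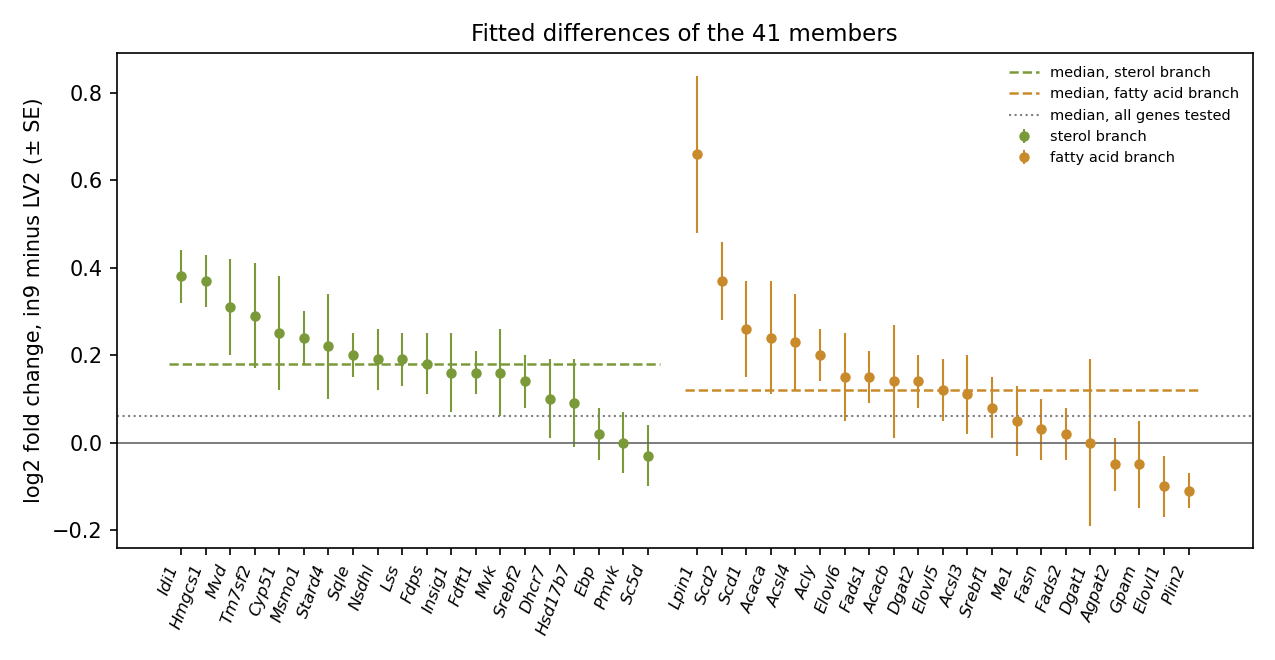
Fitted log2 fold change (in9 minus LV2, y axis) of each member, with its standard error, ordered by size within each branch. Dashed lines are the branch medians of 0.18 (sterol) and 0.12 (fatty acid), and the dotted line is the median of 0.06 over all genes tested. Lpin1, at 0.66, stands above the other members. Plin2, at -0.11, lies lowest in this fit but not after quantile normalization or in every fit without a single library.

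The regulators of the sterol branch differed little between the groups. Srebf2, on chromosome 15 (mm10 positions 82147181 to 82205379), encodes SREBP-2 and had 88.3, 100.1 and 98.5 TPM in in9 replicates 1 to 3, against 90.0, 86.0 and 84.5 TPM in LV2 replicates 1 to 3. The in9 replicate 1 lay among the LV2 libraries, and the other in9 libraries lay above them. The log2 fold change was 0.14 ± 0.06 (SE, adjusted p = 0.285), and without in9 replicate 1 it was 0.19 with an adjusted p of 0.0497. Without another single library the adjusted p of Srebf2 in limma was up to 0.571. Insig1, whose protein retains SREBP in the endoplasmic reticulum and whose own transcription is known to follow SREBP activity, had 68.1, 70.6 and 69.2 TPM in in9, against 72.3, 57.9 and 57.1 TPM in LV2. LV2 replicate 1 held the highest Insig1 value of the 6 libraries, so the groups overlapped (0.16 ± 0.09, adjusted p = 0.404).

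At the entry to the mevalonate route, Hmgcs1 (chromosome 13, positions 119690379 to 119708260), which makes HMG-CoA, had 95.8, 106.4 and 105.1 TPM in in9, against 84.3, 75.3 and 77.4 TPM in LV2. The groups did not overlap, and the means were 102 ± 5.80 TPM in in9 and 79.0 ± 4.70 TPM in LV2 (SD, n = 3 each). Its log2 fold change was 0.37 ± 0.06 (SE, adjusted p = 0.0599). That p was 0.0197 without in9 replicate 1 and up to 0.235 without another single library. Mvd, which decarboxylates mevalonate diphosphate, had 28.57, 30.03 and 27.42 TPM in in9, against 26.91, 20.04 and 22.14 TPM in LV2, with LV2 replicate 1 just under the lowest in9 library (0.31 ± 0.11, adjusted p = 0.196). The kinases between these steps showed no such separation. Mvk ranged from 20.31 to 26.40 TPM in in9, highest in replicate 1, and from 19.35 to 20.61 TPM in LV2. Pmvk averaged 50.8 ± 3.79 TPM in in9 and 50.8 ± 2.91 TPM in LV2.

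Idi1 (chromosome 13, positions 8885501 to 8892451), which interconverts the isoprenoid diphosphates, had 81.2, 84.9 and 88.9 TPM in in9, against 68.9, 60.4 and 66.1 TPM in LV2. It had the smallest p-value of all members, and its groups did not overlap. The log2 fold change was 0.38 ± 0.06 (SE, adjusted p = 0.0576), between 0.33 and 0.42 when any 1 library was left out, with adjusted p-values of 0.0256 to 0.206. Fdps, the synthase of farnesyl diphosphate, was the most abundant sterol member, with 331.0, 278.4 and 298.0 TPM in in9, against 276.9, 254.7 and 267.8 TPM in LV2. The lowest in9 library lay just above the highest LV2 library (0.18 ± 0.07, adjusted p = 0.236). Exons of Fdps overlap those of Gm43738 on the same strand, a gene at a mean of 12.58 TPM.

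All 3 genes of the squalene steps separated the groups by small amounts. Fdft1, the squalene synthase, had 53.4, 49.7 and 50.1 TPM in in9, against 46.5, 45.5 and 44.4 TPM in LV2 (0.16 ± 0.05, adjusted p = 0.167). Exons of Fdft1 overlap those of Ctsb on the opposite strand, a gene at a mean of 307.7 TPM, and the sources used here do not state whether counting used strand. Sqle, the squalene epoxidase, had 96.6, 98.1 and 99.1 TPM in in9, against 90.4, 82.9 and 81.8 TPM in LV2 (0.20 ± 0.05, adjusted p = 0.119). The in9 libraries of Sqle lay within an SD of 1.22 TPM, and the LV2 libraries within 4.68 TPM. Lss, the lanosterol synthase, had 27.0, 28.5 and 28.1 TPM in in9, against 25.5, 23.2 and 24.3 TPM in LV2 (0.19 ± 0.06, adjusted p = 0.173).

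Among the 8 genes that turn lanosterol into cholesterol, Msmo1, a methylsterol oxidase, had 127.0, 126.1 and 124.0 TPM in in9, against 113.8, 107.0 and 98.6 TPM in LV2 (0.24 ± 0.06, adjusted p = 0.111). Its groups did not overlap, nor did those of Nsdhl, which removes the oxidised methyl groups, at 39.0 ± 2.17 TPM in in9 and 34.0 ± 2.12 TPM in LV2, or of the sterol reductase gene Tm7sf2, at 18.2 ± 1.41 TPM in in9 and 14.8 ± 2.26 TPM in LV2. Exons of Tm7sf2 overlap those of Vps51 on the same strand, a gene at a mean of 25.89 TPM. Cyp51, the lanosterol demethylase, averaged 85.1 ± 5.16 TPM in in9 and 72.2 ± 13.5 TPM in LV2. Its LV2 libraries ran from 61.5 TPM in replicate 3 to 87.3 TPM in replicate 1, wider than the distance between the group means. Akap9, a gene at a mean of 13.53 TPM on the opposite strand, has exons that overlap those of Cyp51. The later enzymes lay close together: Hsd17b7 averaged 19.7 TPM in in9 and 18.3 TPM in LV2, Ebp 63.7 TPM in in9 and 62.9 TPM in LV2, Sc5d 70.1 TPM in in9 and 71.5 TPM in LV2, and Dhcr7, the last reductase, 20.6 TPM in in9 and 19.3 TPM in LV2. The log2 fold changes of these 4 ran from -0.03 to 0.10, that of Sc5d being negative, and that of Ebp was negative after trimmed-mean scaling (-0.06) and quantile normalization (-0.01). Stard4, a carrier of sterol between membranes, had 19.0, 25.2 and 25.2 TPM in in9, against 20.6, 18.6 and 19.3 TPM in LV2, so that in9 replicate 1 fell inside the LV2 range (0.22 ± 0.12, adjusted p = 0.349).

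**Figure D2:**
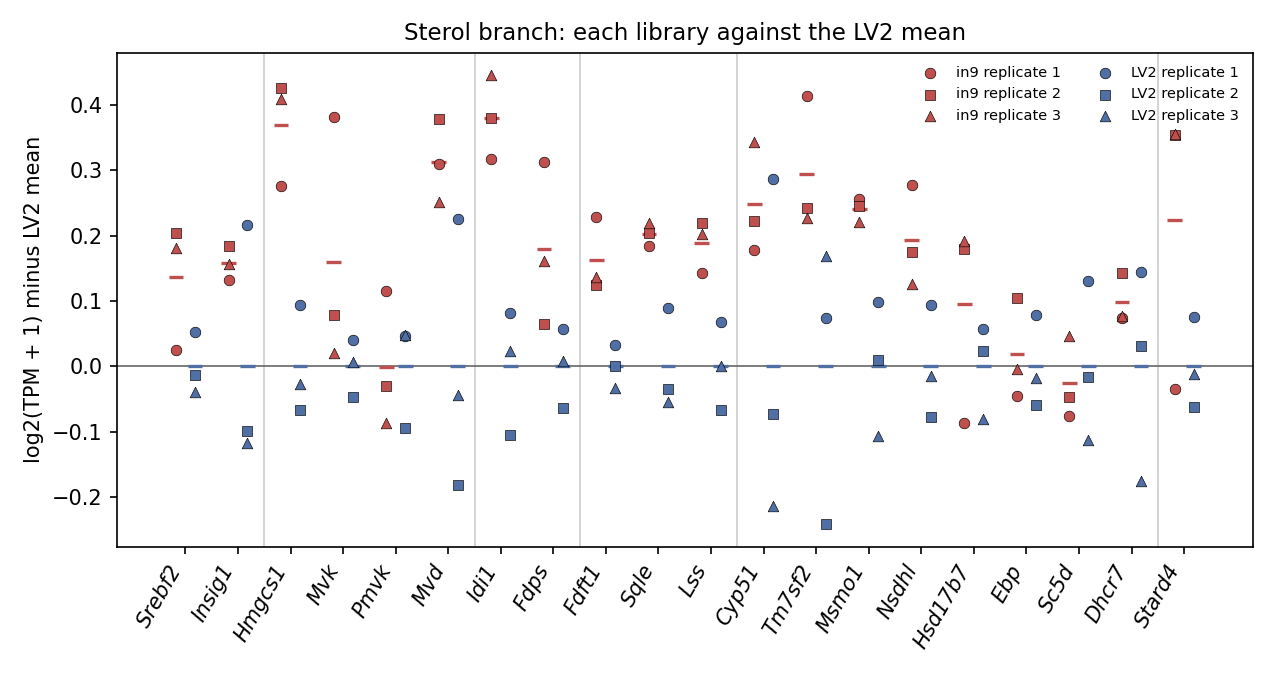
Each sterol member (x axis, grouped by step of the pathway with regulators at the left) in each library, as log2(TPM + 1) minus the LV2 mean (y axis). Symbols are libraries and short bars are group means of 3 libraries. In 10 of the 20 members all in9 symbols lie above all LV2 symbols, and LV2 replicate 1 is the highest LV2 library in 18.

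The promoters of the 3 sterol members with the smallest p-values are shown because SREBP acts on such windows together with NF-Y. Each window runs from 250 bases before to 50 bases after a start site, on the gene's strand, from RefSeq annotation of GRCm38.p6 (the build mm10). Capitals mark the NF-Y letters CCAAT on either strand (ATTGG in the reverse) and, in Hmgcs1, a match to the sterol regulatory element TCACNCCAC. The windows lie at chr13:8885356-8885655 (plus strand) for Idi1, chr13:119690101-119690400 (plus) for Hmgcs1 and chr8:64733529-64733828 (minus) for Msmo1.
Idi1: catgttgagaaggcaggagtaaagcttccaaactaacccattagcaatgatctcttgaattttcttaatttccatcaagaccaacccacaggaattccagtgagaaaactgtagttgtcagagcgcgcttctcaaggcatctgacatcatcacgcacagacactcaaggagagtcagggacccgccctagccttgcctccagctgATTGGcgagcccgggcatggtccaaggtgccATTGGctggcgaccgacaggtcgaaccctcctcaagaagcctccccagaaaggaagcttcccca
Hmgcs1: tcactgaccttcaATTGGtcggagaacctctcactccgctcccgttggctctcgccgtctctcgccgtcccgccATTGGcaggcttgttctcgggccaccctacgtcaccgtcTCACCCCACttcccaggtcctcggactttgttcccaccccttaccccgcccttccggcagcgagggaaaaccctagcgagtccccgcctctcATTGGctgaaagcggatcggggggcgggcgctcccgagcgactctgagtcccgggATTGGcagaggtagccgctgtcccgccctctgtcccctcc
Msmo1: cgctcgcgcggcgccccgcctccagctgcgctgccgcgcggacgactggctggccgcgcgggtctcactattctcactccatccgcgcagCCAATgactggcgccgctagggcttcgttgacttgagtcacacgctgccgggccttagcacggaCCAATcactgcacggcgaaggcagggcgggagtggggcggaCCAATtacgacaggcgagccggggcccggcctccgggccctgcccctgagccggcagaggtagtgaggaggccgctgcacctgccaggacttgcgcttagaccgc

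Of the 41 members, 32 had such windows in the RefSeq table, 16 in each branch, some with several. The letters CCAAT were found on either strand in at least 1 window of 16 of 16 sterol members and 10 of 16 fatty acid members, beside 43.8% of the 9188 tested genes with a window. The Sp1 letters GGGCGG were found in 15 of 16 sterol and 10 of 16 fatty acid members, beside 70% of those genes. The form TCACNCCAC was found in Hmgcs1 alone, at position -137 from the start site, beside 1.36% of those genes. In Idi1 the CCAAT matches begin at -45 and -14, and in Msmo1 at -160, -96 and -55. None of the 3 motifs contains another. A match is a description of letters and was not tested for binding, and other forms of the sterol element were not searched.

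In the fatty acid branch Srebf1, which encodes SREBP-1, had 37.1, 43.0 and 41.4 TPM in in9, against 39.3, 36.8 and 38.4 TPM in LV2. The groups overlapped through in9 replicate 1 (0.08 ± 0.07, adjusted p = 0.548). Srebf2 was the more abundant of the pair, at 2.36 ± 0.0312 times the TPM of Srebf1 in in9 and 2.27 ± 0.0698 times in LV2. The isoforms of Srebf1 are not separated in the table, and its exons overlap those of Rai1 on the opposite strand, a gene at a mean of 27.08 TPM.

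Of the genes that supply and join the chain's units, Acly, which splits citrate into cytosolic acetyl-CoA, had 104.3, 112.9 and 116.2 TPM in in9, against 100.1, 97.5 and 92.4 TPM in LV2. The groups did not overlap (0.20 ± 0.06, adjusted p = 0.144). In limma the adjusted p was 0.0369 without in9 replicate 1 and up to 0.374 without another single library. Acaca, the cytosolic acetyl-CoA carboxylase, had 15.2, 20.7 and 21.4 TPM in in9, against 16.8, 16.0 and 15.0 TPM in LV2, with in9 replicate 1 inside the LV2 range (0.24 ± 0.13, adjusted p = 0.372). Its mitochondrial relative Acacb was likewise lowest in in9 replicate 1, at a lower level of 4.60 ± 0.707 TPM in in9 and 4.07 ± 0.0902 TPM in LV2. Fasn, the fatty acid synthase, averaged 178.5 ± 4.68 TPM in in9 and 175.5 ± 16.5 TPM in LV2, a log2 fold change of 0.03, which was -0.05 after trimmed-mean scaling. Me1, a source of the NADPH that synthesis uses, averaged 27.1 TPM in in9 and 26.1 TPM in LV2, and its log2 fold change of 0.05 was negative after trimmed-mean scaling (-0.03) and quantile normalization (-0.02).

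The stearoyl-CoA desaturases place the first double bond in saturated chains. Scd2 (chromosome 19, positions 44293674 to 44306864) was, after Plin2, the most abundant fatty acid member, with 273.8, 322.1 and 328.7 TPM in in9, against 258.8, 231.5 and 224.0 TPM in LV2. The groups did not overlap, although in9 replicate 1 lay nearer to LV2 than the other in9 libraries did (0.37 ± 0.09, adjusted p = 0.103). In limma that p was 0.0208 without in9 replicate 1 and up to 0.302 without another single library. Scd1, on the same chromosome (positions 44394455 to 44407879), had 29.8, 35.4 and 39.7 TPM in in9, against 28.2, 31.1 and 27.4 TPM in LV2, with in9 replicate 1 inside the LV2 range (0.26 ± 0.11, adjusted p = 0.265). The TPM of Scd2 was 8.85 ± 0.503 times that of Scd1 in in9 and 8.26 ± 0.876 times in LV2, with overlapping ranges. The coding sequences of the pair are alike, and reads may have been split between them. Fads1, a desaturase of polyunsaturated chains, had 32.1, 31.9 and 30.9 TPM in in9, against 29.6, 26.7 and 29.1 TPM in LV2 (0.15 ± 0.06, adjusted p = 0.246). Its partner Fads2 averaged 80.7 ± 1.87 TPM in in9 and 79.7 ± 4.59 TPM in LV2, and its log2 fold change of 0.02 was negative after trimmed-mean scaling (-0.06) and quantile normalization (-0.01).

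The elongases gave no separation of the groups. Elovl5, which extends polyunsaturated chains, averaged 46.4 ± 2.25 TPM in in9 and 42.6 ± 2.70 TPM in LV2, and Elovl6, which extends palmitate, 24.0 ± 2.07 TPM in in9 and 21.5 ± 2.09 TPM in LV2. Elovl1, which makes very long chains, averaged 82.7 ± 5.18 TPM in in9 and 88.6 ± 5.72 TPM in LV2 (-0.10 ± 0.07), and its exons overlap those of the cell cycle gene Cdc20, at a mean of 243.9 TPM, on the opposite strand. Of the genes that activate fatty acids with coenzyme A, Acsl4, which prefers polyunsaturated chains, had 65.6, 84.2 and 85.3 TPM in in9, against 70.4, 65.4 and 63.2 TPM in LV2. The in9 replicate 1 again lay inside the LV2 range (0.23 ± 0.11, adjusted p = 0.304). In limma that p was 0.0260 without in9 replicate 1 and up to 0.586 without another single library. Acsl3 averaged 42.1 ± 3.75 TPM in in9 and 39.0 ± 2.93 TPM in LV2, and its exons overlap those of Utp14b on the same strand, at a mean of 3.57 TPM.

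Genes of glycerolipid assembly and storage held the most positive difference of all members, in Lpin1, and, in the fit as reported, the most negative, in Plin2. After quantile normalization Gpam (-0.16), Elovl1 (-0.13), Agpat2 (-0.08), Dgat1 (-0.08) and Sc5d (-0.06) lay below Plin2 (-0.05). Without in9 replicate 1 Elovl1 lay below Plin2 (-0.15, against -0.10 for Plin2). Over the fits without a single library Dgat1 went down to -0.16, and Plin2 no lower than -0.13. Lpin1 (chromosome 12, positions 16535669 to 16610966), the phosphatase that makes diacylglycerol from phosphatidate, had 6.91, 8.86 and 8.22 TPM in in9, against 6.06, 4.64 and 3.54 TPM in LV2. The groups did not overlap, and the ratio of their means (in9 over LV2) was 1.68 (log2 fold change 0.66 ± 0.18 SE, adjusted p = 0.131). Dgat2, an enzyme of the final step to triglyceride, had 15.96, 15.98 and 16.83 TPM in in9, against 14.68, 14.67 and 14.74 TPM in LV2 (0.14 ± 0.06, adjusted p = 0.283). Dgat1, which catalyses the same step, ranged from 15.6 to 22.8 TPM in in9 and from 15.4 to 23.4 TPM in LV2, so that its libraries varied far more within a group than the group means, 19.7 TPM in in9 and 19.8 TPM in LV2, differed. Gpam, at the head of the route, averaged 8.93 ± 0.902 TPM in in9 and 9.25 ± 0.553 TPM in LV2, and Agpat2, which acts after it, 61.7 ± 3.80 TPM in in9 and 64.0 ± 1.99 TPM in LV2. Egfl7, a gene at a mean of 24.78 TPM on the opposite strand, has exons that overlap those of Agpat2.

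Plin2, which coats lipid droplets and was the most abundant of the 41 members, had 459.4, 473.7 and 457.9 TPM in in9, against 486.0, 502.9 and 511.7 TPM in LV2. Every in9 library lay below every LV2 library, with -0.11 ± 0.04 on the log2 scale (SE, adjusted p = 0.195), or 0.927 times the LV2 mean. That log2 fold change was -0.19 with trimmed means and -0.05 with quantile normalization. In RNA from many cells, fewer cells with a transcript and less of it in each cell cannot be told apart.

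**Figure D3:**
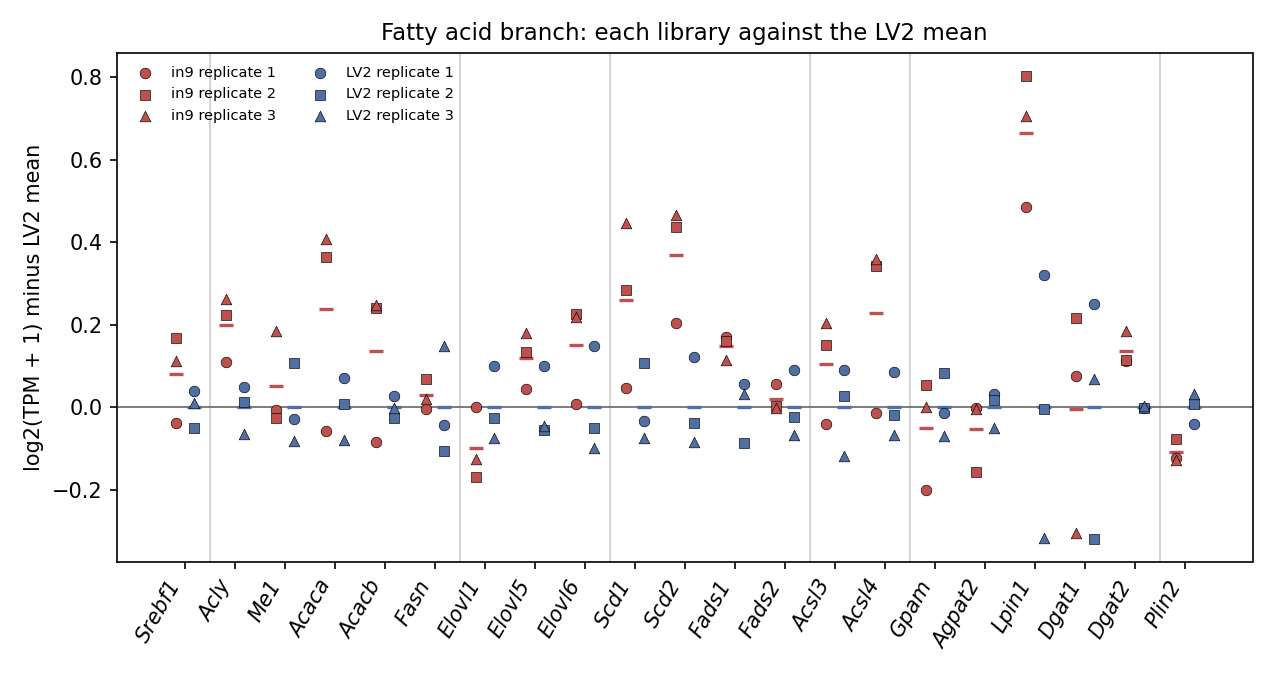
Each fatty acid member (x axis, grouped by role) in each library, as log2(TPM + 1) minus the LV2 mean (y axis). Symbols are libraries and short bars are group means of 3 libraries. The in9 replicate 1 is the lowest in9 library in 14 of the 21 members (and in 12 of the 20 sterol members, beside 50.8% of all genes tested), and lies above all LV2 libraries in 5.

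**Figure D4:**
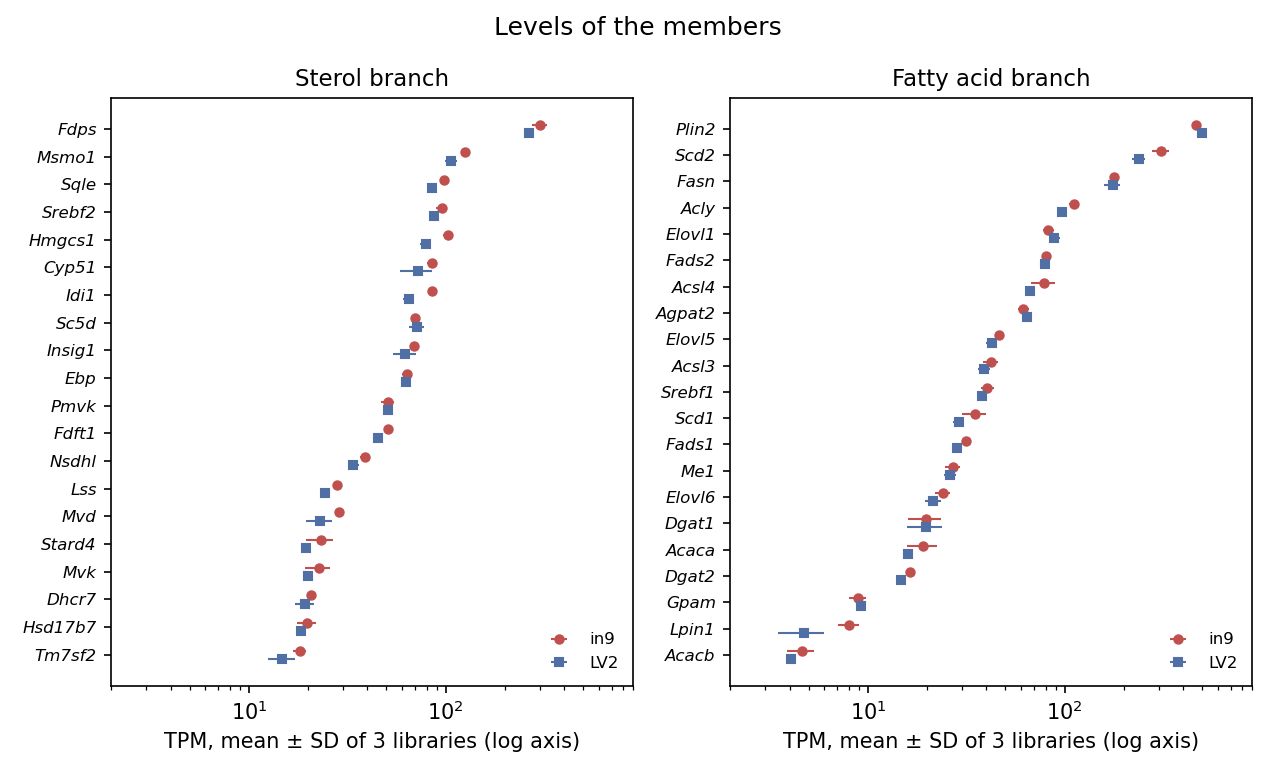
Mean TPM (x axis, log scale) of each member with its SD over 3 libraries, in9 above LV2 in each row, ordered by the mean of all 6 libraries. Sterol members run from Tm7sf2, at 18.2 TPM in in9 and 14.8 TPM in LV2, to Fdps, at 303 TPM in in9 and 266 TPM in LV2. Fatty acid members run from Acacb, at 4.60 TPM in in9 and 4.07 TPM in LV2, to Plin2, at 464 TPM in in9 and 500.2 TPM in LV2.

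The in9 libraries had like medians in the sterol branch but not in the fatty acid branch. Over the sterol members, library medians measured from the LV2 mean were 0.18 in in9 replicate 1, 0.19 in in9 replicate 2 and 0.19 in in9 replicate 3 on the log2 scale. For the fatty acid members the same medians were 0.00, 0.16 and 0.18, and over all genes tested 0.00, 0.08 and 0.09. The in9 replicate 1 was the lowest in9 library for 12 of 20 sterol and 14 of 21 fatty acid members, beside 50.8% of all genes tested. The in9 replicate 1 lay above every LV2 library for 12 of 20 sterol and 5 of 21 fatty acid members, beside 31.3% of all genes tested. The in9 replicates 2 and 3 did so for 15 and 14 sterol and for 13 and 14 fatty acid members, beside 47.0% and 48.4%. The difference between the branches in that library was not tested.

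Among the LV2 libraries, replicate 1 stood high in both branches. It was the highest LV2 library for 18 of 20 sterol and 15 of 21 fatty acid members, beside 48.6% of all genes tested. The sterol medians were 0.08, -0.06 and -0.03 in LV2 replicates 1 to 3, and the fatty acid medians 0.06, -0.02 and -0.07. Summed over the sterol branch, TPM were 1405.5, 1387.2 and 1404.7 in in9, against 1313.3, 1179.5 and 1189.8 in LV2, which is at most 0.141% of a library. The groups of sums did not overlap, and their ratio of 1.14 (in9 over LV2) was a log2 ratio of 0.19, or 0.24 without LV2 replicate 1 and 0.11 with trimmed-mean scaling. Summed over the fatty acid branch, TPM were 1611.6, 1726.7 and 1726.4 in in9, against 1638.1, 1578.6 and 1590.0 in LV2. There in9 replicate 1 lay below LV2 replicate 1, and the log2 ratio of 0.08 was -0.01 with trimmed-mean scaling.

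**Figure D5:**
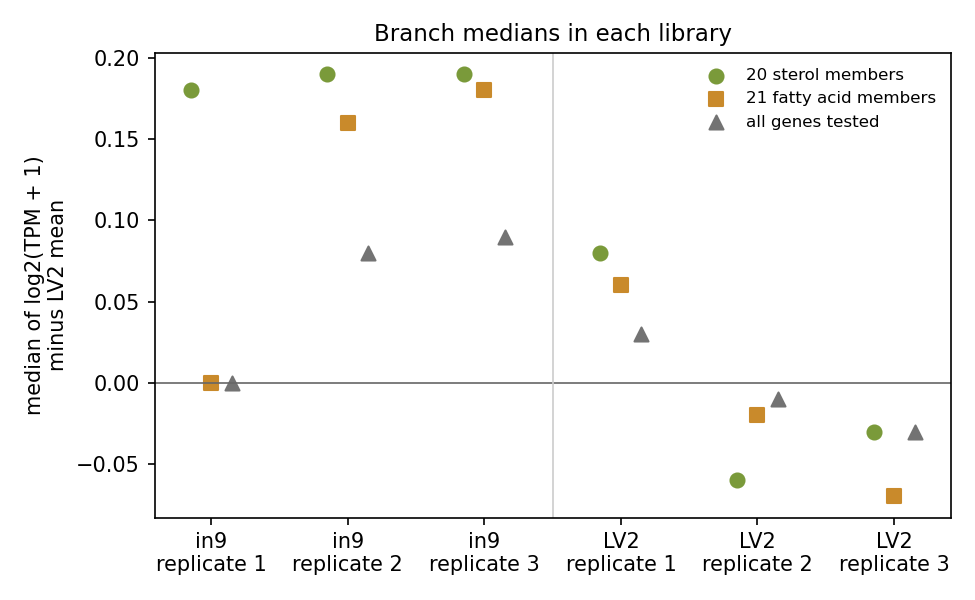
Median over the members of each branch, and over all genes tested, of log2(TPM + 1) minus the LV2 mean (y axis) in each library (x axis). In in9 replicate 1 the sterol median is 0.18 while the fatty acid median and that of all genes are 0.00. LV2 replicate 1 is the highest LV2 library in both branches.

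Without in9 replicate 1, 4 sterol members were called higher at an adjusted p under 0.05 in limma, namely Srebf2, Hmgcs1, Idi1 and Stard4. In the same fit 5 fatty acid members were called higher, namely Acly, Acaca, Scd1, Scd2 and Acsl4, and none of either branch lower. Those counts stand beside 971 genes higher and 509 lower among all genes in that fit. Without any other single library no member was called. A minimum mean of 5 TPM left 40 of the members and fewer genes to adjust over. Hmgcs1 and Idi1 were then called, among 150 genes called higher and 45 lower in all. The numbers of genes tested in these fits are not given here, so no share of all genes stands beside the counts.

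Genes of the same pathways that are not members were read from 5 lists, whose counts at an unadjusted p under 0.05 stand beside 13.6% of all genes tested higher and 5.86% lower. Of 8 tested further sterol synthesis genes none was called, 3 had a positive and none a negative fold change at an unadjusted p under 0.05, with a median log2 fold change of 0.10. Acat2, which makes the acetoacetyl-CoA that Hmgcs1 uses, had 46.6, 45.1 and 48.8 TPM in in9, against 37.8, 41.5 and 38.2 TPM in LV2 (0.25 ± 0.06, adjusted p = 0.103). Its groups did not overlap.

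Of 8 tested genes of SREBP retention and cleavage none was called, and 3 were higher at an unadjusted p under 0.05. The protease gene Mbtps1, whose product makes the first cut in SREBP, averaged 65.2 TPM in in9 and 57.4 TPM in LV2 (0.18 ± 0.05, adjusted p = 0.138). Insig2, a relative of Insig1, averaged 44.8 TPM in in9 and 33.2 TPM in LV2, with no overlap (0.43 ± 0.13, adjusted p = 0.146).

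Of 10 tested genes of sterol uptake, efflux and storage 2 were higher in in9 than in LV2 and none lower at an adjusted p under 0.05. Over all genes tested 0.821% were called higher and 0.194% lower. Nr1h2, which encodes the oxysterol receptor LXR-beta, had 51.74, 51.50 and 53.10 TPM in in9, against 41.37, 40.98 and 37.46 TPM in LV2 (0.38 ± 0.06, adjusted p = 0.0453). Npc2, whose product takes part in moving cholesterol out of lysosomes, had 343.7, 326.3 and 328.1 TPM in in9, against 273.8, 269.6 and 283.5 TPM in LV2 (0.27 ± 0.04, adjusted p = 0.0459). The groups did not overlap in either gene. Their adjusted p-values in limma, Nr1h2 before Npc2, were 0.0692 and 0.194 after trimmed-mean scaling and 0.0799 and 0.0818 with no filter. Without the intensity trend they were 0.0813 and 0.104. They were 0.0469 and 0.0327 after quantile normalization, and 0.0387 and 0.0403 with a minimum mean of 5 TPM. Without a single library they ran from 0.0255 to 0.192 for Nr1h2 and from 0.0187 to 0.214 for Npc2, under 0.05 only without in9 replicate 1.

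Of 14 further fatty acid synthesis genes none was called, 5 had a positive and 1 a negative fold change at an unadjusted p under 0.05, and the median log2 fold change was 0.00. Idh1, a cytosolic source of NADPH, averaged 41.3 TPM in in9 and 31.6 TPM in LV2 (0.38 ± 0.06, adjusted p = 0.0577), and Acss2, which makes acetyl-CoA from acetate, 15.5 TPM in in9 and 11.8 TPM in LV2 (0.36 ± 0.07, adjusted p = 0.0663). Of 12 further glycerolipid genes none was called, 4 had a positive and 1 a negative fold change at an unadjusted p under 0.05. Plin3, a relative of Plin2 on lipid droplets, averaged 21.6 TPM in in9 and 17.1 TPM in LV2 (0.32 ± 0.06, adjusted p = 0.0607), the opposite sign to Plin2. Lipe, the hormone-sensitive lipase, averaged 20.8 TPM in in9 and 15.8 TPM in LV2 (0.38 ± 0.07, adjusted p = 0.0708).

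Because the series is about miR-9, the members' longest annotated 3' untranslated regions were searched for seed matches of its mature form miR-9-5p. The seed of miR-9-3p, from the same precursor genes, was not searched. The mature miR-9-5p, the same from its 3 precursor genes, is given from RefSeq with its seed in capitals.
miR-9-5p: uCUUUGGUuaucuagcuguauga
A match was the complement of bases 2 to 8, or of bases 2 to 7 followed by A, and a site with both is 8 bases long. Matches were found in 3 of 20 sterol members (Insig1, Lss and Nsdhl) and 6 of 21 fatty acid members (Acly, Acacb, Scd1, Fads2, Gpam and Lpin1), beside 25.0% of the 10994 tested genes with such a region. Those shares are close to that of all genes in the fatty acid branch, at 28.6%, and below it in the sterol branch, at 15.0%. The only 8-base site was in Scd1, and the matches to bases 2 to 8 were in Insig1, Fads2 and Gpam. These 4 sites are shown with the match in capitals, at chr19:44397143-44397166 (minus strand) for Scd1, chr5:28078499-28078522 (plus) for Insig1, chr19:10063623-10063646 (minus) for Fads2 and chr19:55069071-55069094 (minus) for Gpam, all in mm10.
Scd1: gcctacttACCAAAGAccccaggc
Insig1: tacaacaaACCAAAGtgactgagt
Fads2: ctccagaaACCAAAGggagtgttc
Gpam: aaatctcaACCAAAGttatgctct
The log2 fold change was 0.26 for Scd1, 0.16 for Insig1, 0.02 for Fads2 and -0.05 for Gpam. Idi1, Hmgcs1, Msmo1, Sqle and Scd2 carried no match to the miR-9-5p seed. The 3 sterol members with a match had a median log2 fold change of 0.19 and those without 0.18. The 6 fatty acid members with a match had 0.17 and those without 0.11, against 0.08 with and 0.05 without a match over all genes tested. These medians rest on few members, and no match was tested for an effect on its transcript. The median length of the regions was 1514 bases in the sterol branch, 1498 in the fatty acid branch and 1347 over all genes tested.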

How the data were processed

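Messenger RNA of 6 libraries of 4T1 cells, 3 labelled in9 and 3 labelled LV2, was read from a table of TPM values deposited by the authors, rounded to 2 decimals. The build was mm10, per the submitters' processing notes. No aligner, quantifier, annotation or use of strand is given in the sources used here. TPM are scaled to a fixed sum in each library, so a rise in abundant genes lowers the others, and depth and counting error are unknown.

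Genes with a mean of at least 1 TPM were fitted as log2(TPM + 1) by limma 3.58.1 (R 4.3.3), letting the prior variance follow the mean level, with two-sided tests and Benjamini-Hochberg adjustment over all 13406 genes. Fold changes on this scale understate low genes such as Lpin1 and Acacb. The steps were tested on simulated data: of 200 changed genes among 13406, 64.2% of those changed 1.5-fold and 84.4% of those changed 2-fold were recovered, and 4.24% of calls were false. The changed genes were drawn only from those above about 5 TPM. The simulated noise was independent, with no library set apart as in9 replicate 1 is here, so these rates need not hold for the calls above. No member differed by 2-fold, and all but Lpin1 differed by less than 1.5-fold, a size that was not simulated. Tables used pandas 2.3.3.

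Gene positions, exon overlaps and 3' untranslated regions came from GENCODE M21, which matched 55227 of 56448 identifiers. Members and lists were chosen with earlier results of these data known. All libraries' values are given for Srebf2, Srebf1, Insig1, the 7 members of each branch with the smallest p and the 2 with the highest mean, and of each further list the 2 genes with the smallest p are named, except 1 that is not reported here. The other members are given by group means or ranges, except that all values of Stard4, Acaca and Acsl4 are printed, a choice made after they were seen. The promoters of Idi1 and Msmo1 were chosen after their values were seen. The alternatives tried were adding 0.1 in place of 1, dropping the filter or raising it to 5 TPM, trimmed-mean scaling (trimming 30% of log ratios and 5% of mean levels), quantile normalization, no trend, library weights, a replicate block and leaving out each library.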

Additional observations from a re-analysis of the deposited data

How the results depend on the processing

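Of the 41 members' log2 fold changes, none changed sign with a pseudocount of 0.1, without a filter, with a minimum mean of 5 TPM, without the intensity trend or with a replicate block. Trimmed-mean scaling gave -0.06 for Ebp, -0.03 for Me1, -0.05 for Fasn and -0.06 for Fads2, and with quantile normalization Ebp was -0.01, Me1 -0.02 and Fads2 -0.01; with library weights Dgat1 was 0.10. Without single libraries the signs of near-zero members also turned, with ranges of -0.06 to 0.04 for Pmvk, -0.03 to 0.06 for Ebp, -0.08 to 0.04 for Sc5d, -0.02 to 0.11 for Me1, -0.02 to 0.10 for Fasn, -0.01 to 0.07 for Fads2, -0.10 to 0.03 for Gpam and -0.16 to 0.15 for Dgat1. The cause of these turns was not tested.

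Genes called over the whole table were 24 higher and 6 lower without a filter, 150 higher and 45 lower with a minimum mean of 5 TPM, 44 higher after trimmed-mean scaling (24 lower, so 64.7% of calls were higher, against 80.9% without it), 27 higher and 4 lower without the trend, and 1166 higher and 523 lower with library weights. Without single libraries they ran from 6 to 971 higher and from 1 to 509 lower. Sterol members called were 2 with a minimum mean of 5 TPM, 7 with library weights and 0 to 4 without single libraries; fatty acid members called were 4 with library weights and 0 to 5 without single libraries. At an unadjusted p under 0.05 the sterol count of 10 was 4 with trimmed means, 5 with quantiles, 14 with library weights and 4 to 11 without single libraries. The share of all genes at that p in these settings is not given here. The fatty acid count of 4 higher was 11 with library weights and 3 to 7 without single libraries, and the count of 1 lower, Plin2, was 0 after quantile normalization, without the trend and with the replicate block, and 0 to 1 without single libraries. The sterol median of 0.18 was 0.10 with trimmed means and 0.12 with quantiles, the fatty acid median of 0.12 was 0.04 and 0.05 in these settings, and the log2 ratio of summed TPM was 0.11 (sterol) and -0.01 (fatty acid) after trimmed-mean scaling.

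Same-numbered libraries shared no clear deviation, with correlations of -0.0969, 0.0223 and -0.0461 over genes, so the numbers were not taken as pairs. With a replicate block 1 gene was called higher and 1 lower, and no member was called. In that fit 8 sterol and 3 fatty acid members were higher at an unadjusted p under 0.05. The share of all genes past that p with the block is not given here, so these counts have no background beside them. The unknown depth limits members at a few TPM most, such as Acacb and Lpin1.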
